A study of Mus musculus with 272 samples.

Results

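The genes described here belong to the spindle checkpoint and to the control of the anaphase-promoting complex (APC/C) and were followed through mouse oocyte maturation and preimplantation development: Bub1, Bub1b, Bub3, Mad1l1, Mad2l1, Ttk, Cdc20, Fbxo5, Fbxo43 and Pttg1. They were taken by name from the deposited table of gene symbols, and 10 of 10 were found among the 15771 symbols kept. All 10 passed the filter on low values in each comparison. The study sequenced polyadenylated RNA from 8 stages: oocytes with a germinal vesicle (GV), oocytes arrested at metaphase II (MII), zygotes, embryos of 2, 4 and 8 cells (2C, 4C, 8C), morulae and blastocysts. Each stage had 4 transcriptome pools of 20 oocytes or embryos, and 3 sucrose gradients, each loaded with a lysate of about 100 and cut into 10 equal fractions that were sequenced one by one. All gradients shared a lysis buffer with cycloheximide, which holds ribosomes on a transcript. No genotype, strain, age or further agent is named in the labels used here, and every library is a pool of oocytes or embryos. The pools of a stage came from the batch that its gradients used, so p-values measure the spread between these pools, which may be technical.

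In dividing cells, kinetochores without microtubules recruit Bub1 and the kinase Ttk (Mps1) and use Mad1 as a platform to convert Mad2. Mad2, BubR1 (the product of Bub1b) and Bub3 then join Cdc20 in the mitotic checkpoint complex, which keeps Cdc20 from activating the APC/C, the ubiquitin ligase that marks cyclin B and securin for destruction. Emi1 (Fbxo5) and Emi2 (Fbxo43) inhibit the APC/C directly, and Emi2 is the factor that holds the mature oocyte at metaphase II until fertilization. Securin (Pttg1) keeps separase inactive until anaphase. A fully grown oocyte is largely silent in transcription, so translation of stored mRNA, often through cytoplasmic polyadenylation elements (CPEs) near the 3′ end, is a known route to new protein between GV and the first cleavage.

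The 3′ ends and the promoters of the genes are shown because the results below concern position in the gradient at the meiotic stages and abundance after the 2-cell stage. The last 100 bases of the 3′ untranslated region (1 GENCODE M21 transcript a gene) were searched on the transcript strand for TTTTAT and TTTTAAT, the core letters of a CPE. Of the 8 genes whose region is at least 100 bases long, 3 held such a match (Bub1b, Mad2l1 and Fbxo5), against 18.9% of 12247 genes with a region that long, and Cdc20 held it in a region of 62 bases. Bub1b and Cdc20 held 2 matches each. The 30 bases around the match nearest the 3′ end are given for each gene, with that match in capitals.
Bub1b: gtaTTTTATaataaaatagtttttgttaca
Mad2l1: tgtaataaagaactcttaTTTTAATgtttt
Cdc20: taTTTTATtttttctaataaagttcgtatc
Fbxo5: ttTTTTATatctgtgaatacctgttttcaa
In the whole region, 6 of 10 genes held a match, Ttk with 2 and Fbxo43 with 6 outside the last 100 bases. The polyadenylation signal AATAAA or ATTAAA lay in the last 100 bases, or in the whole of a shorter region, in 10 of 10, against 79.7% of the 12247 genes. The printed match began past the last such signal in Mad2l1, and before it in Bub1b, Cdc20 and Fbxo5. Bub1, Bub3, Mad1l1 and Pttg1 held no CPE letters in the transcript read, which says only that these letters were not there. Matches are a description of sequence and do not show a site in use.

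Promoters of many mitotic genes carry a cell cycle homology region (CHR; here TTTGAA or its reverse complement TTCAAA) and the box CCAAT (or ATTGG). RefSeq promoters (build GRCm38.p6, 250 bases before to 50 after the start, both strands searched, no overlap between the motifs) matched 9 of 10 genes, all but Fbxo43. CHR letters were found in 5 of 9 (Bub1b, Bub3, Ttk, Cdc20, Fbxo5), against 20.2% of 27025 genes, and CCAAT in 6 of 9 (those 5 and Bub1), against 41.1%. Cdc20 and Ttk are printed because their transcripts went opposite ways after the 2-cell stage while both promoters hold both motifs. Capitals mark the motifs, and each run covers 80 bases before and 20 after the RefSeq start, at chr4:118437324-118437423 on the minus strand for Cdc20 and chr9:83834609-83834708 on the plus strand for Ttk.
Cdc20: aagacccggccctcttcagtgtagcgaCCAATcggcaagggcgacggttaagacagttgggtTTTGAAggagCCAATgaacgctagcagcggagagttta
Ttk: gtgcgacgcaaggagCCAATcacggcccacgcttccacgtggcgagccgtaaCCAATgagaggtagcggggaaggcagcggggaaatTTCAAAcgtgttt
In Cdc20 the CHR letters began 18 bases before the start with CCAAT 53 and 8 bases before it. In Ttk the CHR letters lay 7 bases past the start, with CCAAT 65 and 28 bases before it.

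Levels are CPM, the reads of a gene scaled to a library of 1000000 reads. Transcriptome libraries held 11.2 M to 24.3 M reads (M, 1000000) and fraction libraries 0.0102 M to 43.2 M (median 18.6 M), 15 of the 240 fractions having under 1 M. CPM is a share of a library's own polyadenylated RNA and not an amount, in transcriptomes as in fractions. The length of poly(A) tails and the total RNA of an oocyte or embryo were not tested. Fewer cells with a transcript and less of it per cell cannot be told apart in pools. Summed oocyte markers (Gdf9, Bmp15, Zp3, Ooep) ran from 14226 to 15987 CPM in GV, from 11558 to 14422 in MII and from 41.3 to 57.8 in 4C. The GV and MII ranges overlapped. Summed 2-cell markers ran from 1539 to 2197 CPM in 2C and summed blastocyst markers from 2128 to 2696 CPM in blastocysts, so the 2C and blastocyst labels matched their markers. No list singled out GV, MII, zygote, 4C, 8C or morula. Cumulus markers present in the table (2 of 8, Fshr and Cyp19a1) summed to 37.5 to 68.9 CPM in GV, MII and zygotes and to at most 0.227 from 4C on, and their part in the results was not tested. Transcripts held by 2 gradients of a stage were missed by the remaining one most often in 2C and 8C. That count leaves out genes missing from more than 1 gradient, and in 4C it covered 53 cases, 0 of them without a read. In 4C, 25 of 30 fraction libraries had no read of Bub1, 25 none of Ttk, 22 none of Bub1b and 21 none of Mad1l1. In 8C, 26 had none of Bub1 and 22 none of Ttk. Where a gene of the 10 had at least 10 CPM in the same fraction (2 to 10) of the other 2 gradients, the remaining library had no read of it in 9 of 130 cases in 2C (6.92%), 4 of 91 in 8C (4.4%) and 3 of 119 in morulae (2.52%), against 0 of 255 in GV and 0 of 218 in zygotes. Heavy side means fractions 6 to 10, averaged per gradient, and light side fractions 1 to 5. The labels number the fractions without naming their content, so higher numbers are taken as the denser end.

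Changes are differences of means of log2(CPM + 1) with the standard error (SE) from limma, fitted over all genes and all stages, and are called at a Benjamini-Hochberg adjusted p under 0.05 with a change of at least 1. This scale understates changes of low genes. Transcriptomes were compared between consecutive stages. Of the 10 genes, 3 were called from GV to MII, all higher, where 34.5% of all genes were called (9.11% higher). None of the 10 was called from MII to zygote (10.3% of all genes) or from 4C to 8C (2.60%). From zygote to 2C, 2 were called (33.9% of all genes), 1 in each direction. The largest count, 6 of 10, came from 2C to 4C, where 64.8% of all genes were called, with 2 higher (31.8% of all genes) and 4 lower (32.9%). From 8C to morula and from morula to blastocyst 2 each were called, beside 11.9% and 26.8% of all genes. From MII to zygote 5 of 10 had an unadjusted limma p under 0.05 (36.4% of all genes) and edgeR called 0 (15% of all genes). From 4C to 8C these numbers were 3 (25%) and 1 (3.94%). The median change of the 10 was 0.28 from GV to MII and -0.30 from 2C to 4C, beside -0.11 and 0.02 over all genes. Quantile normalization moved the median of all genes by over 0.1 from GV to MII (to 0.15), from zygote to 2C (from 0.37 to -0.06), from 2C to 4C (to 0.20), from 4C to 8C (from -0.11 to 0.00) and from morula to blastocyst (from 0.16 to 0.00).

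**Figure D1:**
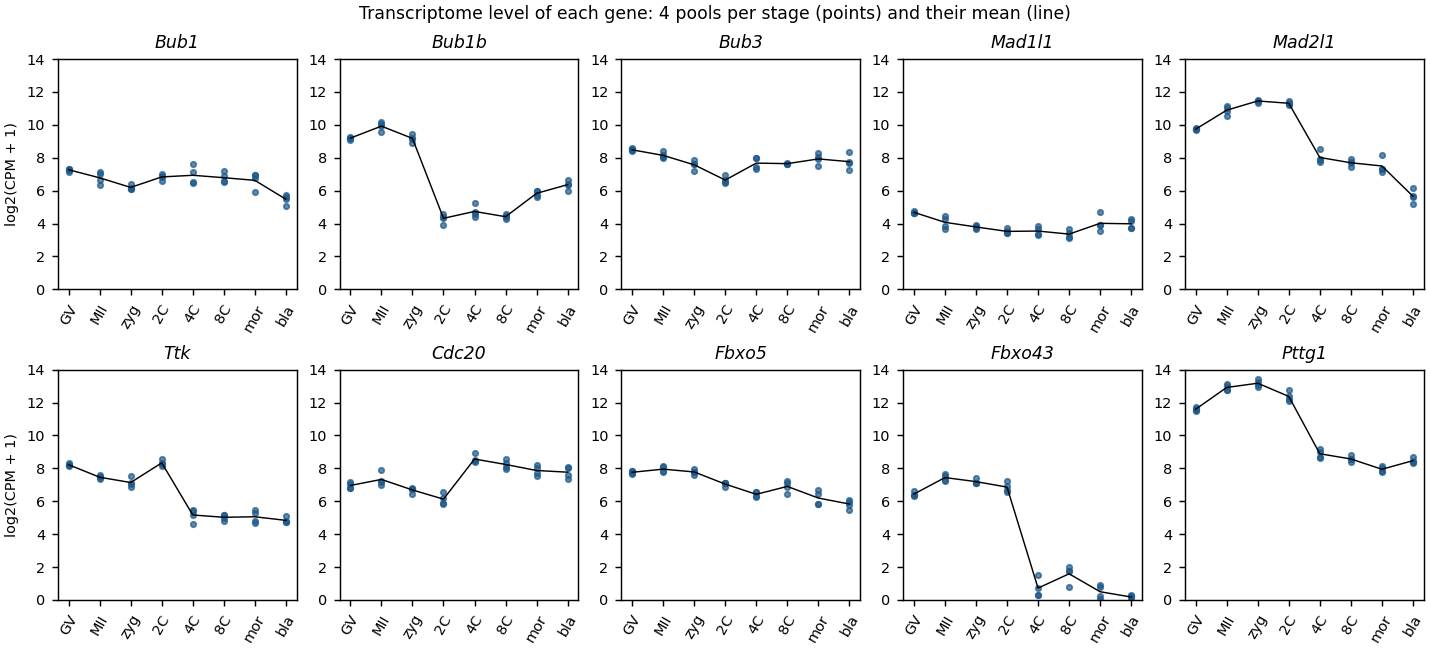
Transcriptome level of the 10 genes, log2(CPM + 1), against stage, with 4 pools a stage as points and their mean as a line. Mad2l1, Pttg1, Fbxo43 and Ttk drop between 2C and 4C, Bub1b drops between zygote and 2C, and the stage means of Cdc20 are higher from 4C on than in any earlier stage.

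Bub1, Ttk and Mad1l1 encode proteins that recruit and start the checkpoint. Bub1, the kinase that scaffolds the checkpoint at kinetochores, stood at 158, 155, 141 and 161 CPM in GV and ran from 79.9 to 137 in MII, from 67.1 to 84.5 in zygotes, from 95.7 to 128 in 2C and from 87.7 to 197 in 4C. The ranges of 2C, 4C, 8C and morula overlapped. Bub1 fell in the blastocyst, to 44.3, 53.3, 32.5 and 47.2 CPM, each below the lowest morula pool at 58.4 (change -1.15, SE 0.22, limma adjusted p = 4.5e-05). Ttk, the kinase at the head of the checkpoint, read 289, 293, 286 and 323 CPM in GV and from 161 to 189 in MII. In zygotes the 4 pools ran from 118 to 183 CPM (median 133) and in 2C they held 315, 313, 282 and 386, with no overlap. That rise was 2.29-fold (SE 0.17 on the log2 scale, limma adjusted p = 2.6e-07), and it was not called by edgeR on recovered reads. In 4C Ttk was down to 34.9, 23.9, 41.2 and 43.1 CPM, a fall of 8.99-fold (change -3.17, SE 0.17, limma adjusted p = 1.9e-18), and later pools stayed between 24.6 and 43.1 CPM. Mad1l1, which encodes the Mad2 platform, was low throughout, at 24.7 ± 1.09 CPM in GV (SD, n = 4) and 9.38 ± 1.89 in 8C, and was not called in any transition of the transcriptome.

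The genes whose products form the checkpoint complex with Cdc20 did not share a course. Mad2l1 (Mad2) stood at 888, 811, 868 and 848 CPM in GV and at 1491, 1809, 2302 and 2104 in MII. Each MII pool lay above each GV pool, a 2.23-fold difference (change 1.16, SE 0.18, limma adjusted p = 1.1e-06). Zygotes held 2596 to 2961 CPM and 2C embryos 2341 to 2838. In 4C the pools read 368, 212, 247 and 231 CPM, 9.82-fold lower (change -3.30, SE 0.18, limma adjusted p = 2.4e-18). From morula to blastocyst Mad2l1 fell again, from 142, 289, 162 and 159 CPM to 69.3, 48.5, 35.7 and 50.9 (change -1.84, SE 0.18, limma adjusted p = 1.9e-10). Bub1b lost its transcript one stage earlier than Mad2l1. It stood at 586 ± 31.2 CPM in GV, 983 ± 176 in MII and 583 ± 91.6 in zygotes (SD, n = 4 each). In 2C its 4 pools read 20.5, 19.2, 14 and 23.4 CPM, 29.0-fold below the zygote pools of 585, 479, 566 and 702 (change -4.86, SE 0.17, limma adjusted p = 2.5e-23). It rose from 20.9, 20.2, 22.5 and 18.1 CPM in 8C to 62.0, 62.8, 52.5 and 48.9 in morulae (change 1.42, SE 0.17, limma adjusted p = 7.5e-08). Bub3 had stage means between 100 CPM in 2C and 357 in GV. Its pools held 122, 93.0, 98.8 and 85.8 CPM in 2C and 175, 157, 249 and 249 in 4C (change 1.03, SE 0.18, limma adjusted p = 3.5e-06). The groups did not overlap, but the change was close to the threshold of 1. It was not called without 4C pool C, 4C pool D or 2C pool H, nor after quantile normalization, nor by edgeR, with changes of 0.93 to 0.96 without 1 of those pools.

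Cdc20, the activator of the APC/C that the checkpoint complex holds back, was the gene called higher from 2C to 4C with the larger change. Its pools held 113, 143, 111 and 129 CPM in GV, 237, 151, 141 and 128 in MII, 87.1, 106, 106 and 111 in zygotes and 93.0, 59.7, 72.1 and 56.5 in 2C. In 4C they held 483, 361, 349 and 336, each above every earlier pool (5.42-fold over 2C, change 2.44, SE 0.19, limma adjusted p = 3e-14). Later pools ran from 164 to 386 CPM.

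The inhibitors and the substrate of the APC/C differed in course, and of these genes Fbxo43 alone was nearly absent from 4C on. Fbxo43 (Emi2) read 83.9, 97.1, 78.2 and 84.0 CPM in GV and 198, 186, 159 and 152 in MII (change 1.00, SE 0.24, limma adjusted p = 0.00047). The groups did not overlap, yet the call, at the threshold, ended on leaving out GV pool A, C or D or MII pool A or B (changes of 0.94 to 1.00). Fbxo43 kept 94.4 to 149 CPM in 2C and was at 1.86, 0.686, 0.214 and 0.253 CPM in 4C (change -6.14, SE 0.24, limma adjusted p = 1.2e-22). It was at 3.04, 2.44, 2.37 and 0.75 CPM in 8C and at 0.861, 0.713, 0.199 and 0.0453 in morulae (change -1.09, SE 0.24, limma adjusted p = 0.00063), a call that ended without 8C pool A or morula pool D (changes of -0.94 and -0.95). Fbxo5 (Emi1) was not called in any transition, with means of 216 CPM in GV, 248 in MII, 131 in 2C, 121 in 8C and 56.6 in blastocysts. Pttg1 (securin) was the most abundant of the 10 also per length, at 5276 CPM per kb of exon in zygotes (n = 4), where Mad2l1 stood at 349, Bub1b at 159, Fbxo5 at 113 and Mad1l1 at 4.89 (union of GENCODE M21 exons). That union is 8032 bases for Mad2l1 and 1766 for Pttg1, against 1725 and 741 in the transcripts read above. Values per kb therefore depend on the isoforms annotated. Pttg1 pools rose from 3168, 2924, 3362 and 2939 CPM in GV to 7075, 6984, 8911 and 8154 in MII (change 1.32, SE 0.13, limma adjusted p = 1.2e-10). They held 8035 to 10914 CPM in zygotes and 4447 to 7000.0 in 2C. In 4C Pttg1 was at 588, 398, 412 and 517 CPM, 11.2-fold lower (change -3.49, SE 0.13, limma adjusted p = 7.9e-23). Its later means were 382 CPM in 8C, 247 in morulae and 354 in blastocysts.

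Position in the gradient was then read within each stage as the heavy minus the light side. A difference was called for 0 of 10 genes in GV (0.0725% of all genes), 3 in MII (3.23%), 3 in zygotes (3.01%), 2 in 2C (18.2%), 2 in 4C (16.3%), 1 in 8C (9.05%), 1 in morulae (5.81%) and 0 in blastocysts (2.74%). The 3 calls in MII and the 3 in zygotes were all toward the heavy side, where 1.71% and 2.14% of all genes were called. The median heavy-light difference of the 10 was 1.53 in MII and 1.29 in zygotes, beside -0.06 and -0.04 over all genes, and -0.83 in 4C beside -0.26. The 3 gradients of the heavy side lay above all 3 of the light side, or the reverse, for 5 of 10 genes in GV (22.4% of all genes), 6 in MII (33.8%), 7 in zygotes (32.8%), 4 in 2C (22.1%), 2 in 4C (16.0%), 1 in 8C (19.4%), 7 in morulae (28.7%) and 5 in blastocysts (35.4%). These counts include Ttk in 4C (means of 0.004581 CPM heavy and 1.37 light) and Fbxo43 in morulae (0 and 0.1935). Both were so low there that their separation says little on position. An unadjusted limma p under 0.05 was seen for 2 of 10 in GV (5.46% of all genes), where edgeR called 1 (0.0527%), and for 3 in blastocysts (10.3%), where edgeR called 0 (0.508%). The called counts rest on a spread shared with the cleavage stages. In a fit without 2C, 4C and 8C, added after seeing the data, 2 of 10 were called in GV (3.35% of all genes), 5 in MII (14.5%), 6 in zygotes (15.2%), 4 in morulae (19.6%) and 3 in blastocysts (11.2%). That fit made 20 calls in the 5 stages where the fit over all stages made 7.

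**Figure D2:**
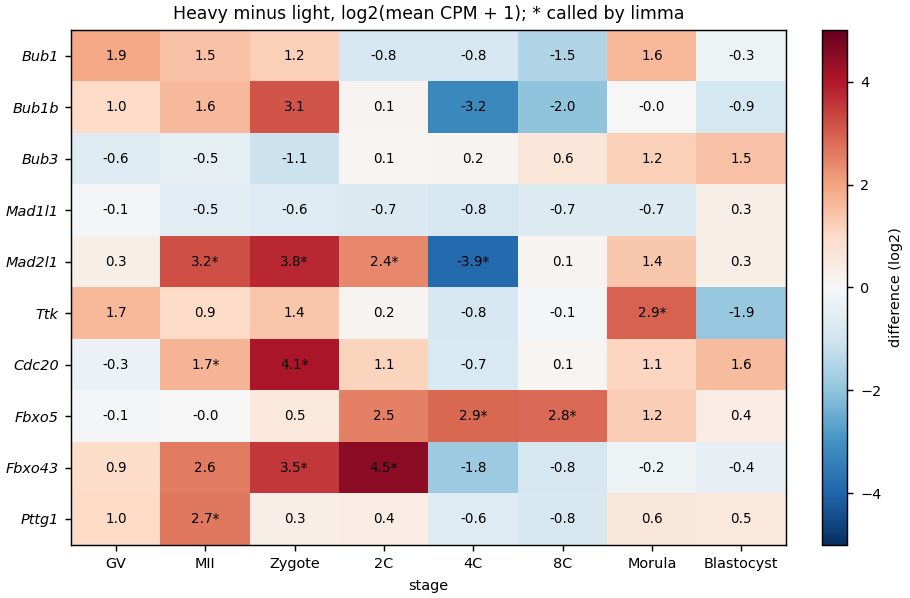
Heavy minus light difference of log2(mean CPM + 1) for each gene (rows) and stage (columns), 3 gradients a side, with the value in each cell and a star where limma called it in the fit over all stages. Mad2l1, Cdc20 and Fbxo43 are at 3.5 or above in zygotes, and Mad2l1 is at -3.9 in 4C.

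Mad2l1 lay toward the heavy end in MII and zygotes. In GV its 3 gradients held 124, 193 and 195 CPM on the heavy side and 128, 191 and 102 on the light side, and the sides overlapped. Fraction 1 of GV gradients A and B held 4 and 8 Mad2l1 reads in libraries of 10243 and 23138 reads, so the GV light side and centre rest partly on few reads. Over fractions 2 to 5 the light side was at 65.1, 154 and 109 CPM. In MII they held 214, 274 and 179 CPM heavy and 21.9, 23.8 and 21.5 light (9.42-fold, change 3.24, SE 0.62, limma adjusted p = 0.00088). In zygotes they held 329, 334 and 505 heavy and 29.6, 18.4 and 37.5 light (change 3.75, SE 0.62, limma adjusted p = 0.00016). The mean level rose along the MII gradient from 9.56 CPM in fraction 2 to 420 in fraction 10, and the centre of the profile (the CPM-weighted mean fraction number) went from 5.82 ± 0.88 in GV to 8.37 ± 0.04 in MII (SD, n = 3). The change of the heavy-light difference from GV to MII was 2.94 (SE 0.87) and was not called over all stages (limma adjusted p = 0.32). It was called without the cleavage stages (limma adjusted p = 0.0018), and was 2.46 and not called with fractions 2 to 5 as the light side (limma adjusted p = 1). In 2C the heavy side still led, with 526, 989.9 and 780.5 CPM against 139, 81.0 and 245 (change 2.39, SE 0.62, limma adjusted p = 0.0048), a call lost without 2C gradient B (1.79, limma adjusted p = 0.1). In 4C the order was turned, with 0.401, 6.54 and 21.9 CPM heavy and 45.5, 147 and 116 light (change -3.90, SE 0.62, limma adjusted p = 1.9e-05). The fit on 4C alone did not call it.

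Cdc20 had the largest heavy-light difference of the 10 in the zygote. In GV it was spread over the whole gradient, with 814, 655 and 526 CPM on the heavy side and 893, 829.8 and 711 on the light side. In MII the sides held 44.2, 309 and 195 CPM heavy and 22.6, 38.9 and 87.1 light. Heavy exceeded light within each gradient, though the sides overlapped across gradients, since gradient A was low on both. The call (change 1.68, SE 0.49, limma adjusted p = 0.048) ended without gradient B or C (limma adjusted p from 0.093 to 0.66) and under 7 other settings, and was kept with the gradient as a block (limma adjusted p = 0.0084). In zygotes the heavy side held 385, 295 and 271 CPM and the light side 18.8, 10.9 and 25.6 (17.0-fold, change 4.09, SE 0.49, limma adjusted p = 1.3e-06), a call kept under each other way of processing tried. Its share of the fraction-summed CPM in fractions 6 to 10 was 44.8% ± 2.65 in GV, 74.7% ± 12.3 in MII and 94.4% ± 2.67 in zygotes (SD, n = 3). In 2C it held 549.8, 688 and 304 CPM heavy against 193, 238 and 239 light, a difference of 1.13 not called over all stages and called with the gradient as a block (limma adjusted p = 0.032). The drop of the difference from zygote to 2C was called (change -2.96, SE 0.70, limma adjusted p = 0.0084), but not without zygote gradient B (-2.69, limma adjusted p = 0.053). In blastocysts it was again higher on the heavy side in every gradient, with 611, 878 and 643 CPM against 246, 251 and 211 (change 1.57, limma adjusted p = 0.083, 0.023 without the cleavage stages and 0.014 with the gradient as a block).

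Pttg1 was called heavy in MII and not in the zygote. In GV it held 888, 905 and 1194 CPM heavy and 529, 543 and 409 light. In MII it held 7716, 8672 and 4665 heavy and 950.5, 1296 and 1011 light (6.30-fold, change 2.66, SE 0.26, limma adjusted p = 8.4e-09). Its mean rose along the MII gradient from 539 CPM in fraction 3 to 10211 in fraction 10. In zygotes the heavy side held 3897, 4098 and 3187 CPM and the light side 3386, 2999 and 2766, and heavy exceeded light within each of the 3 gradients although the sides overlapped across them. That difference was 0.29 (SE 0.26, limma adjusted p = 0.82) and was not called with the gradient as a block either (limma adjusted p = 0.73). The transcriptome pools of MII and zygote overlapped. The heavy-light difference fell by 2.37 from MII to zygote (SE 0.37, limma adjusted p = 0.0008), where 3 of 15172 genes were called for such a change (0.0198%). Quantile normalization ended that call. The rise of the difference from GV to MII was 1.65 (SE 0.37, limma adjusted p = 0.042; 0.185% of all genes called) and was lost on leaving out GV gradient A or B or MII gradient A or B (limma adjusted p from 0.18 to 0.36). No filter, quantile normalization, only the groups compared, edgeR and fractions 8 to 10 as the heavy side each ended that call too. With fractions 2 to 5 as the light side the rise was 1.30 and not called (limma adjusted p = 0.68). It was called without the cleavage stages (limma adjusted p = 0.0040).

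**Figure D3:**
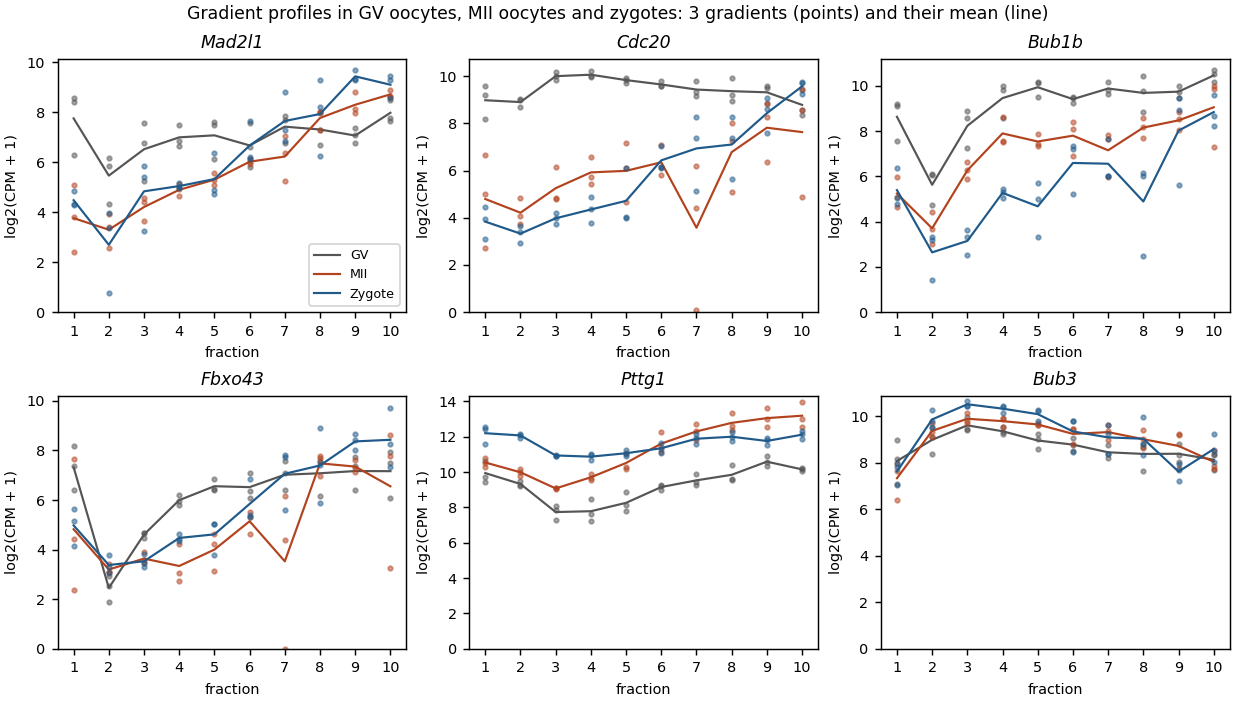
CPM on the log2(CPM + 1) scale against fraction number for 6 genes in GV oocytes, MII oocytes and zygotes, with 3 gradients as points and their mean as a line. Cdc20 is near level in GV and climbs from 9.29 CPM in fraction 2 to 773 in fraction 10 in zygotes, while the mean of Bub3 peaks in fraction 3 in all 3 stages.

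Fbxo43 and Bub1b also lay toward the heavy end in zygotes. Fbxo43 held 87.6, 162 and 122 CPM heavy and 48.9, 11.3 and 12.6 light in MII, and 314, 180.2 and 243 heavy and 19.7, 16.9 and 23.5 light in zygotes (change 3.53, SE 0.93, limma adjusted p = 0.024). The zygote sides were far apart, but the call was lost on leaving out any 1 zygote gradient (limma adjusted p from 0.14 to 0.2). In 2C Fbxo43 held 54.4, 861 and 485 CPM heavy and 17.1, 1.66 and 42.5 light (change 4.48, SE 0.93, limma adjusted p = 0.00055), a call that ended without gradient B (2.55, limma adjusted p = 0.08). Bub1b held 333, 224 and 156 CPM heavy and 38.2, 21.5 and 18.2 light in zygotes, with no overlap and 90.2% ± 0.916 of its fraction-summed CPM in fractions 6 to 10. Its difference of 3.15 was not called over all stages (SE 1.18, limma adjusted p = 0.16) and was called without the cleavage stages (SE 0.52, limma adjusted p = 0.00013).

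Other genes took other positions. Bub3 lay lighter from GV to zygote and heavier in morulae and blastocysts. In GV and MII the light side lay above the heavy side without overlap. Those differences, -0.64 and -0.49, were not called over all stages or without the cleavage stages. Bub3 held 598, 589 and 303 CPM heavy and 997, 1141 and 874 light in zygotes, and 544, 666 and 574 heavy and 169, 239 and 236 light in blastocysts. Neither difference was called over all stages (-1.07, limma adjusted p = 0.21, and 1.48, limma adjusted p = 0.051). Both were called without the cleavage stages (limma adjusted p = 0.0068 and 0.00052), and the gradient as a block called the blastocyst difference. Ttk held 216, 259.9 and 217 CPM heavy and 60.2, 75.3 and 79.5 light in GV. In morulae it held 22.1, 7.34 and 27.0 heavy and 0.501, 4.61 and 0.445 light (change 2.93, SE 0.81, limma adjusted p = 0.02), a call that ended without morula gradient A or C (2.26 and 2.42, limma adjusted p = 0.31). In blastocysts the order was turned, at 2.93, 1.27 and 0.742 heavy and 7.42, 7.23 and 10.4 light. Fbxo5 was even in MII, at 152, 80.8 and 138 CPM heavy and 214, 96.4 and 85.9 light. In 2C it held 113, 20.4 and 249 CPM heavy and 9.63, 4.73 and 51.1 light, a difference of 2.53 not called over all stages (limma adjusted p = 0.053) and called with the gradient as a block (limma adjusted p = 0.0093). It was called heavy in 4C (change 2.85, SE 0.93, limma adjusted p = 0.03) and in 8C (2.83, SE 0.93, limma adjusted p = 0.048). The heavy side of 4C held 0.23, 28.6 and 35.7 CPM, with gradient A at the light level. In 8C Fbxo5 held 10.5, 32.6 and 17.5 CPM heavy and 0.0382, 17.3 and 0.0376 light, which overlapped. It had no read in 18 of 30 fraction libraries in 4C and 15 in 8C. The 4C call ended without gradient B or C (limma adjusted p from 0.14 to 0.24) and the 8C call without gradient A or C (0.22 to 0.3). Stage weights, only the groups compared and fractions 8 to 10 as the heavy side each ended both calls. No filter, edgeR and fractions 2 to 5 as the light side each also ended the 8C call. Mad1l1 stayed near the middle, with centres of 5.60, 5.20, 5.14 and 4.72 from GV to 2C, and Bub1 was called in no stage.

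Across the transitions, a change of the heavy-light difference was called for 1 of 10 genes from zygote to 2C (Cdc20; 4.65% of all genes), for 2 from 2C to 4C (11.7%) and for 1 from 4C to 8C (2.47%), beside the Pttg1 calls above. From 2C to 4C these were Mad2l1, whose difference fell by 6.29 (SE 0.87, limma adjusted p = 7.8e-06), and Fbxo43, whose difference fell by 6.28 (SE 1.31, limma adjusted p = 0.0013). Both calls ended in a fit on the 2 stages alone. With the gradient as a block Cdc20 was called as well, at -1.87 (SE 0.51, limma adjusted p = 0.019). In 4C Fbxo43 had almost no reads on the heavy side, at 1.07, 0 and 0 CPM. Its light side held 0.179, 0.816 and 39.6 CPM, so its 4C position rests on gradient C. Of 30 fraction libraries 23 had no read of it, and its 4C transcriptome mean was 0.753 CPM. The fall of its difference therefore cannot be told apart from the loss of the transcript. From 4C to 8C the difference of Mad2l1 went back up by 4.03 (SE 0.87, limma adjusted p = 0.008), with 35.6, 132 and 47.1 CPM heavy and 41.5, 100.5 and 40.0 light in 8C, which overlapped. Stage weights, a fit on the 2 stages alone and fractions 8 to 10 as the heavy side each ended that call. None was called from 8C to morula (0.534% of all genes) or from morula to blastocyst (0.0198%). An unadjusted limma p under 0.05 was seen there for 3 and 1 of 10 (8.48% and 3.34% of all genes), and edgeR called 0 of 10 in both (1.57% and 0% of all genes). Without the cleavage stages the calls were 2 from GV to MII (1.48% of all genes), 1 from MII to zygote (0.244%) and 1 from morula to blastocyst (0.784%), the last for Ttk at -4.82 (SE 0.67, limma adjusted p = 0.0012).

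**Figure D4:**
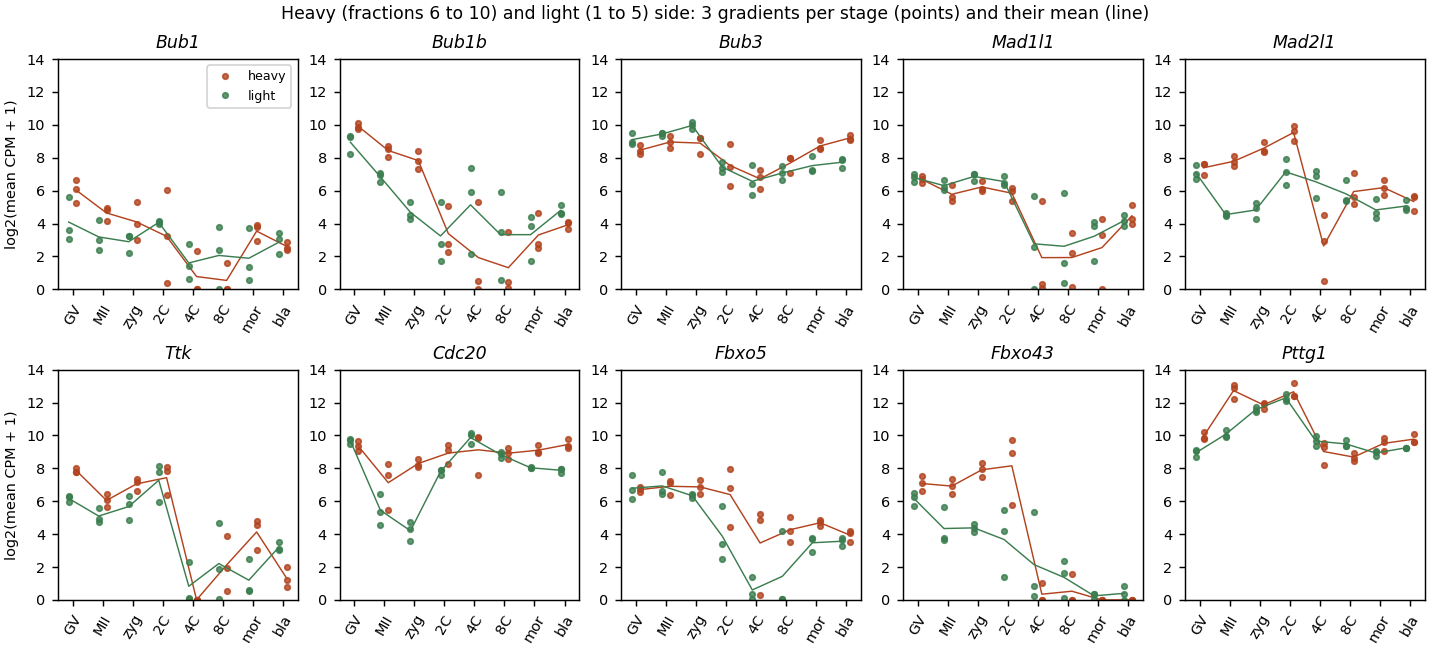
Mean CPM of the heavy side (fractions 6 to 10) and the light side (1 to 5) on the log2(mean CPM + 1) scale against stage for the 10 genes, with 3 gradients as points and their mean as a line. Heavy and light points are apart for Mad2l1 in MII and zygotes and for Cdc20 in zygotes, and points of 4C and 8C spread widely for Bub1b, Mad1l1 and Ttk.

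The heavy side was also compared between consecutive stages. From GV to MII 2 of 10 were called (4.06% of all genes), Pttg1 higher by 2.78 (SE 0.31, limma adjusted p = 3e-05) and Cdc20 lower by -2.23 (SE 0.58, limma adjusted p = 0.03). The light side of Cdc20 fell as well, from a mean of 811 CPM in GV to 49.5 in MII. The Cdc20 call ended without GV gradient A, B or C or MII gradient A (limma adjusted p from 0.063 to 0.2). Without the cleavage stages 4 of 10 were called (17.9% of all genes), with Bub1b at -1.47 and Ttk at -1.80 beside these. None was called from MII to zygote (1.49% of all genes, and 9.98% without the cleavage stages). From zygote to 2C 2 were called (20.8% of all genes), both lower (15.7%), Bub1b by -4.44 (SE 1.09, limma adjusted p = 0.006; not called by edgeR) and Bub3 by -1.36 (SE 0.48, limma adjusted p = 0.047). Bub3 was not called without zygote gradient A or B or 2C gradient A or C (limma adjusted p from 0.089 to 0.27). The largest count was 6 of 10 lower from 2C to 4C, where 37.8% of all genes were called, 22.3% lower and 15.6% higher. The median change of the 10 there was -3.29 beside -0.06 over all genes, and it was -3.29 also with Ttk at its bound. Ttk had 0, 0 and 1 reads on the heavy side of the 3 gradients in 4C. Against 3 reads a gradient, its level was at least 371-fold lower than the 2C mean of 193.9 CPM (272, 81.5 and 228 in the 3 gradients). Mad2l1 changed by -6.89 (SE 0.70, limma adjusted p = 1e-07), Fbxo43 by -7.81 (SE 0.75, limma adjusted p = 6e-08) and Pttg1 by -3.63 (SE 0.31, limma adjusted p = 1.4e-08), and these 3 calls and that of Ttk were kept under each other way of processing tried. Mad1l1 (-3.92, SE 1.14, limma adjusted p = 0.0094) was not called without 4C gradient A or B (limma adjusted p = 0.054 and 0.055) and read 0.50 with fractions 8 to 10 as the heavy side. Fbxo5 (-2.95, SE 0.95, limma adjusted p = 0.018) was not called without 2C gradient A or C or 4C gradient A (limma adjusted p from 0.054 to 0.14). From 4C to 8C 1 was called (6.54% of all genes), Mad2l1, higher by 3.30 (SE 0.70, limma adjusted p = 0.0056). Stage weights, only the groups compared and fractions 8 to 10 as the heavy side each ended that call. None was called from 8C to morula (7.98% of all genes) or from morula to blastocyst (0.0757%). In these and from MII to zygote 4, 1 and 1 of 10 had an unadjusted limma p under 0.05 (20.4%, 4.5% and 9.89% of all genes), and edgeR called 0 of 10 in each (4.38%, 0.0413% and 0.344%). Without the cleavage stages Ttk was called lower from morula to blastocyst, at -2.81 (SE 0.43, limma adjusted p = 0.0067; 2.00% of all genes). Fbxo43 had 0 reads on the heavy side of all 3 morula gradients and 0, 2 and 0 in blastocysts, at or under the 3 reads taken as the floor.

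Whether the heavy side moved more than the transcriptome was tested as an interaction in a fit over both kinds of library. The light side has no part in it, so a change of the whole gradient can also be called. From GV to MII 2 of 10 were called (8.22% of all genes). Cdc20 lost 2.60 on the heavy side beyond its transcriptome, whose change was 0.37 (interaction -2.60, SE 0.56, limma adjusted p = 0.00095), a call that ended with fractions 8 to 10 as the heavy side. The light side of Cdc20 fell more, from a mean of 811 CPM in GV to 49.5 in MII, against 665 to 183 on the heavy side. Its heavy-light difference rose by 1.99, which was not called (limma adjusted p = 0.66). Pttg1 gained 1.46 beyond it (SE 0.32, limma adjusted p = 0.0011), a call kept under each other way of processing tried. From MII to zygote 1 was called (2.28% of all genes), Pttg1 at -1.13 (SE 0.32, limma adjusted p = 0.041), which ended without MII pool A, B or D, zygote pool A or B, MII gradient A or B, or zygote gradient A or C (limma adjusted p from 0.055 to 0.12). From zygote to 2C 1 was called (27.5%), Pttg1 at 1.60 (SE 0.32, limma adjusted p = 0.00013). From 2C to 4C 7 of 10 were called, all lower (31.8% of all genes, 18.0% lower): Ttk -4.26, Mad1l1 -3.94, Mad2l1 -3.60, Bub1 -2.55, Fbxo5 -2.32, Cdc20 -2.24 and Bub3 -1.84, with limma adjusted p from 3.3e-07 for Ttk to 0.027 for Fbxo5. Mean light levels fell as well, from 186 CPM in 2C to 1.37 in 4C for Ttk and from 15.8 to 2.69 for Bub1. They went from 94.1 to 18.5 for Mad1l1, 21.8 to 0.647 for Fbxo5, 155 to 103 for Mad2l1 and 174 to 108 for Bub3. That of Cdc20 rose from 223 to 957. In the fit over all stages, Mad2l1 alone of these was also called for a change of the heavy-light difference. Ttk was kept under each other way of processing tried. Stage weights ended the other 6 calls, and Mad1l1 read 0.48 with fractions 8 to 10 as the heavy side. Bub1 was lost without 4C pool D, 2C gradient A or 4C gradient A or B (limma adjusted p from 0.052 to 0.24), and Fbxo5 without 2C gradient A or C or 4C gradient A (0.06 to 0.34). Cdc20 here combined a heavy side of 549.8, 688 and 304 CPM in 2C and 192, 977 and 927 in 4C, which overlapped, with the higher transcriptome of 4C. From 4C to 8C Mad2l1 (3.63, SE 0.62, limma adjusted p = 3.9e-05) and Ttk (2.26, SE 0.60, limma adjusted p = 0.0078) were called (13.7% of all genes), Ttk not without 8C gradient B (1.38, limma adjusted p = 0.083). Only the groups compared ended both calls, and stage weights and fractions 8 to 10 as the heavy side each ended that of Ttk. From 8C to morula 3 were called (6.45%), Bub1 at 3.16, Ttk at 1.97 and Pttg1 at 1.46, with limma adjusted p of 0.021, 0.036 and 0.0019. Bub1 was lost without morula pool A, 8C gradient A or morula gradient A or B (limma adjusted p from 0.052 to 0.056), and Ttk without 8C pool A, B or D, morula pool A or D, or gradient A or C of either stage (0.051 to 0.22). From morula to blastocyst 1 was called (2.20%), Ttk at -2.59 (SE 0.60, limma adjusted p = 0.0092), which ended without morula gradient C (-2.26, limma adjusted p = 0.051). Without the cleavage stages 4 of 10 were called from GV to MII (19.5% of all genes), 4 from MII to zygote (11.2%), and 1 from morula to blastocyst (11.8%), with Cdc20 at -2.60 and then 1.81 and Fbxo43 at -1.16 and then 1.24.

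Genes with the most similar course over the 32 transcriptome libraries were found by Pearson r on log2(CPM + 1), as a description over libraries that share 8 stages. The 3 closest to Mad2l1 were Mospd1 (0.992), Nexn (0.989) and Med27 (0.982), to Fbxo43 Klhl1 (0.991), Pld1 (0.990) and Rfpl4 (0.989), and to Pttg1 Cep55 (0.989), Srpk2 (0.988) and Hoxa7 (0.987). Ttk was closest to Htr5a (0.985), Bub1b to Dlgap5 (0.984) and Cdc20 to Exosc3 (0.960). Fbxo5 was closest to Susd3 (0.938), Bub3 to Rad54b (0.879), Bub1 to Gm10259 (0.849) and Mad1l1 to 3110082I17Rik (0.825). Among the 10 themselves the highest r was 0.975, between Fbxo43 and Pttg1, followed by 0.934 between Mad2l1 and Fbxo43, and the lowest was -0.82, between Ttk and Cdc20.

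The rest of the pathway was read as 4 lists in the transcriptome. Of 14 APC/C subunits, 3 rose and 5 fell from GV to MII (9.11% and 25.3% of all genes), the largest changes being Anapc15 at -2.44 (SE 0.17, limma adjusted p = 3.7e-15) and Anapc2 at -2.31 (SE 0.25, limma adjusted p = 3.7e-10). From 2C to 4C 8 of the 14 rose and 0 fell (31.8% and 32.9% of all genes), with a median of 1.2 beside 0.02 over all genes, in the same transition as Cdc20. Of 8 partners and regulators of the APC/C, 4 rose and 1 fell from GV to MII (9.11% and 25.3% of all genes). Fzr1, which encodes Cdh1, the other activator of the complex, changed by -2.82 (SE 0.28, limma adjusted p = 9.7e-11) and Gmnn, the replication licensing inhibitor and APC/C substrate geminin, by 1.87 (SE 0.14, limma adjusted p = 6.7e-14). Of 16 genes of the kinetochore platform, 2 rose and 4 fell from GV to MII, with the kinetochore genes Zwint at -3.63 (SE 0.17, limma adjusted p = 6.4e-20) and Spc24 at -3.44 (SE 0.20, limma adjusted p = 3.3e-17), and 4 rose and 5 fell from 2C to 4C, shares of 16 near the 31.8% and 32.9% of all genes. Of 10 genes of metaphase II arrest and egg activation, 1 rose and 1 fell from GV to MII, Map2k1 (MEK1) at 1.40 (SE 0.13, limma adjusted p = 3.3e-11) and Mapk3 (ERK1) at -1.07 (SE 0.33, limma adjusted p = 0.0056). Of these 10, 0 rose and 4 fell from MII to zygote (4.48% of all genes lower), and 1 rose and 7 fell from 2C to 4C (32.9% lower), with a median of -1.80, in the transition in which Fbxo43, Mad2l1, Ttk and Pttg1 fell.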

How the data were processed

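The deposited table holds CPM values per gene symbol and library. Per the submitters' processing notes, tools named are Trim Galore 0.6.7, FastQC, HISAT2 2.2.1, featureCounts 2.0.1 and edgeR, with build GRCm39. Their settings are not given in the sources used here. In 38 columns repeated symbols lift the sum above 1000000; the deposited values of the 9 columns over it by more than 2% were recorded as signal and used as CPM. Of 15854 symbols, 1 was kept from each of 76 groups with identical values, none of the 10 genes among them. Deposited CPM were whole multiples of 1 read in 271 of 272 libraries (100% of values whole within 0.05 reads), and edgeR used these reads.

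The members, lists and tests were chosen with earlier results of these data known. A gene was tested where the number of samples with a CPM of 1 or more reached the size of the smallest group, and limma 3.58.1 (trend, pseudocount 1) in R 4.3.3 was fitted to 32 transcriptomes (14642 genes), 24 heavy means (14524), 48 heavy and light means (15172) and 56 samples for the interaction (15165). Named genes are the 10, with the 2 genes per list that changed most from GV to MII. The limma fits in their main setting were tested on simulated data drawn with the spread of GV libraries. A minimum of recovered changes was required for the transcriptome, the heavy side and heavy against light only. The edgeR fit and the other alternatives were not tested in this way. Replicates differed in each of 288 pairs by more than sampling noise (chi-square per degree of freedom at least 2.55). Read counts carry no molecular identifiers, so floors of 3 reads cover counting error only. Heavy and light sides share a gradient, so the gradient pairs them by construction (correlation of deviations 0.00776 to 0.253, median 0.0973). The 4 transcriptome columns of 2C are lettered E to H, unlike their labels, and were used without a letter. Alternatives were a pseudocount of 0.25, no filter, quantile normalization, stage weights, only the groups compared, a replicate block, edgeR 4.0.16, fractions 8 to 10 as heavy, 2 to 5 as light, each library or gradient left out and, added later, no cleavage stages. Sequences are from GENCODE M21 and RefSeq, of another build than the table, and were matched by symbol.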

Additional observations from a re-analysis of the deposited data

Results flagged for a closer look

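In 4 of 80 groups of 4 transcriptome pools, 1 pool stood apart from the other 3 by Dixon's test at 95%, and chance flags about 1 group in 20. Mad2l1 read 289 CPM in 1 morula pool and 142 to 162 in the others. Cdc20 read 483 CPM in 1 4C pool against 336 to 361. Fbxo5 read 116 CPM in 1 2C pool against 135 to 138. Fbxo43 read 169 CPM in 1 zygote pool against 137 to 139.

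Tested changes of the heavy-light difference between consecutive stages passed the threshold (limma adjusted p in brackets) for Pttg1 from GV to MII at 1.65 (0.042) and from MII to zygote at -2.37 (0.0008), for Cdc20 from zygote to 2C at -2.96 (0.0084), for Mad2l1 from 2C to 4C at -6.29 (7.8e-06) and from 4C to 8C at 4.03 (0.008), and for Fbxo43 from 2C to 4C at -6.28 (0.0013). None of the 6 was kept under every alternative.

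Changes of the heavy side that differed from those of the transcriptome numbered 17. From GV to MII these were Cdc20 at -2.60 and Pttg1 at 1.46, from MII to zygote Pttg1 at -1.13 and from zygote to 2C Pttg1 at 1.60. From 2C to 4C they were Bub1 at -2.55, Bub3 at -1.84, Mad1l1 at -3.94, Mad2l1 at -3.60, Ttk at -4.26, Cdc20 at -2.24 and Fbxo5 at -2.32. From 4C to 8C they were Mad2l1 at 3.63 and Ttk at 2.26, from 8C to morula Bub1 at 3.16, Ttk at 1.97 and Pttg1 at 1.46, and from morula to blastocyst Ttk at -2.59. Of the 17, 3 were kept under every alternative.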

How the results depend on the processing

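Of 61 calls on the 10 genes, 38 were kept in each refit without 1 library or gradient, 26 under each other alternative planned, and 23 under all: 11 of 15 in the transcriptome, 5 of 11 on the heavy side, 4 of 12 heavy against light, 0 of 6 for a change of that difference and 3 of 17 for the heavy side beyond the transcriptome. With 1 library or gradient left out, calls on the 10 ran from 14 to 16, 9 to 12, 9 to 17, 4 to 8 and 15 to 18, and over all genes from 26943 to 27354, 10254 to 13133, 7956 to 10378, 2378 to 4098 and 13144 to 17360, in that order. Stage weights gave 19 calls heavy against light on the 10 (12 otherwise), 11 beyond the transcriptome (17), and over all genes 750 changed differences (2975) and 6501 beyond the transcriptome (13988). Only the groups compared gave 3 changed differences on the 10 (6), and over all genes 343, with 5997 on the heavy side (11443). edgeR gave 4853 changed differences over all genes. With fractions 8 to 10 as the heavy side, Mad1l1 from 2C to 4C turned to 0.50 on the heavy side and 0.48 beyond the transcriptome. The cause of these moves was not tested.

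Without 2C, 4C and 8C, chosen after seeing the data, calls on the 10 went from 2 to 5 on the heavy side, 7 to 20 heavy against light, 2 to 4 for changed differences and 4 to 9 beyond the transcriptome, and over all genes from 816 to 4340, 2255 to 9686, 34 to 381 and 1925 to 6459. The replicate block lost none of the 45 calls it could test. The gradient as a block raised heavy-light calls on the 10 from 12 to 16 (Bub3 and Cdc20 in blastocysts, Cdc20 and Fbxo5 in 2C). Across stages the letters share only a name (r from -0.178 to 0.169 in transcriptomes), and without 2C the block left 7 transcriptome calls and 9 beyond the transcriptome. Transcripts missed in single fraction libraries were most frequent in 2C and 8C. Genes with no read in most fraction libraries, such as Bub1 and Ttk, limit 4C and 8C.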
